A study of Mus musculus with 8 samples.

Results

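DNA damage signalling was followed through 10 genes in whole testes of 12-day-old mice: the kinases *Atm* and *Atr*, the sensors and activators *Atrip*, *Topbp1* and *Hus1*, the mediators *Mdc1*, *Rnf8* and *Brca1*, and the checkpoint kinases *Chek1* and *Chek2*. They were picked by symbol, as genes of ATM and ATR signalling, which is also used in pachytene silencing, and are 10 of the 40840 genes in the count tables. Testes came from 4 wild type and 4 *Tra2b-cPEko* mice on a C57BL/6J background, named A to D within a genotype. Wild type mice were Tra2bPE fl/+ and so already carried 1 floxed allele of the *Tra2b* poison exon, an exon whose inclusion marks the transcript for decay. *Tra2b-cPEko* mice were Tra2bPE fl/-; Vasa-Cre, written Tra2b fl/-; Vasa-Cre in the paper's text. They lost the remaining poison exon in germ cells, where Vasa-Cre is active from embryonic life. Their Sertoli, Leydig, peritubular and blood cells have no active Cre and keep 1 floxed copy beside the deleted allele. The question put to these 10 genes was whether their RNA level differed between the genotypes at the age when the most advanced germ cells approach pachytene.

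ATM and ATR are large kinases that answer to broken and to single-stranded DNA, and pass the signal to the checkpoint kinases CHEK2 and CHEK1. In male meiosis the same proteins mark programmed breaks. From pachytene onward ATR, with TOPBP1, BRCA1 and MDC1, spreads phosphorylated H2AX over the unpaired X and Y chromosomes, which are then silenced.

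The libraries held 36757386 to 59101569 reads on genes, and all values below are CPM, normalised read counts set against the library total after TMM scaling. *Tra2b* stood at 156 to 176 CPM in wild type and 190 to 209 CPM in *Tra2b-cPEko* mice, and its paralog *Tra2a* at 111 to 144 CPM and 65.0 to 73.1 CPM. Gene counts do not show the loss of a single exon, so these values do not check the deletion itself. The methods describe the mice as independent, and p-values below measure the spread between these mice. Wild type mice differed among themselves in a list of 12 pachytene marker genes: the mean log2 CPM was 3.93 and 4.07 in mice A and B, against 2.67 and 2.90 in C and D and 2.65 to 3.13 in the 4 *Tra2b-cPEko* mice. In whole testis, fewer cells of a type and less RNA per cell cannot be told apart.

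The promoters of *Chek1* and *Chek2* are shown because these were the members whose levels did not overlap between the genotypes under TMM scaling. On GRCm39 (GENCODE vM39) *Chek1* spans chr9:36614487-36638361 on the minus strand and *Chek2* chr5:110987826-111022011 on the plus strand, both protein-coding, and *Atm*, *Atr*, *Atrip* and *Topbp1* also lie on chromosome 9. Each window runs from 250 bases before to 50 after the start of the gene in the RefSeq table of GRCm38.p6, and is printed 5′ to 3′ on the strand of the gene. The *Chek1* window is chr9:36726609-36726908 on the minus strand and the *Chek2* window is chr5:110839733-110840032 on the plus strand. Capitals mark the CCAAT box or its reverse complement, and GGCGGGAA, a form of the E2F motif.
Chek1: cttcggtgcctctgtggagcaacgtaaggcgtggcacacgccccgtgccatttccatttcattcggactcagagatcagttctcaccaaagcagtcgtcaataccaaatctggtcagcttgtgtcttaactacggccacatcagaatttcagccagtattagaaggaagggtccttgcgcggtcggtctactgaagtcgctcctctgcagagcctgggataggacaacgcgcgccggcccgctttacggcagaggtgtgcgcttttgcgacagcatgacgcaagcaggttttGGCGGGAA
Chek2: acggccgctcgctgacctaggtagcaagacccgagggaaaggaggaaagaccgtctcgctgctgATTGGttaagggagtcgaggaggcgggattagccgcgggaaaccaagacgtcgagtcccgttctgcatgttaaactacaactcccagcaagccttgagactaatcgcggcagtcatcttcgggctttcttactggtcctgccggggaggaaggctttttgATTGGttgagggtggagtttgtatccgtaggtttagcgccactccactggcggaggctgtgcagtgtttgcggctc
*Chek2* held 2 CCAAT boxes, both on the other strand, beginning at positions -186 and -26, and *Chek1* held none. CCAAT on either strand was also in the windows of *Atm*, *Atrip*, *Mdc1*, *Rnf8* and *Brca1*, against 37.4% of all 32851 promoters. Of the E2F forms TTTCGCGC and TTTGGCGC, the first was in *Topbp1* alone among the 10 members, and 0.813% of all promoters held either. GGCGGGAA, which was searched after the sequences had been read, was in *Chek1* at position 43 after the start and, on the other strand, in *Mdc1* and *Rnf8*. It was in 2.19% of all promoters, and these matches describe letters and not binding.

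Differences between the genotypes were small for all members that could be tested, with log2 fold changes from -0.29 to 0.04. *Chek1*, the checkpoint kinase below ATR, had 0.820 times its wild type level in *Tra2b-cPEko* testes and *Chek2*, the checkpoint kinase below ATM, had 0.864 times, and the other 7 members that could be tested overlapped between the genotypes. None of the 9 members tested had an adjusted p under 0.05 in edgeR's quasi-likelihood test, against 0.157% of all 19104 genes tested. An unadjusted p under 0.05 was found for 2 members, *Chek1* and *Chek2*, against 15.3% of all genes. DESeq2, the tool of the study, was run here on the deposited counts. It called 1 member, *Chek1*, against 2.79% of the genes for which it gave an adjusted p, and limma-voom called 0 members. The levels of the 2 genotypes did not overlap for 2 members, against 8.54% of all genes, and with upper-quartile scaling for 1 member, *Chek1*, against 8.22%. Of the 9 members, 7 had a log2 fold change below 0 and 2 above, with a median of -0.08, while 50.3% of all genes were below 0.

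**Figure D1:**
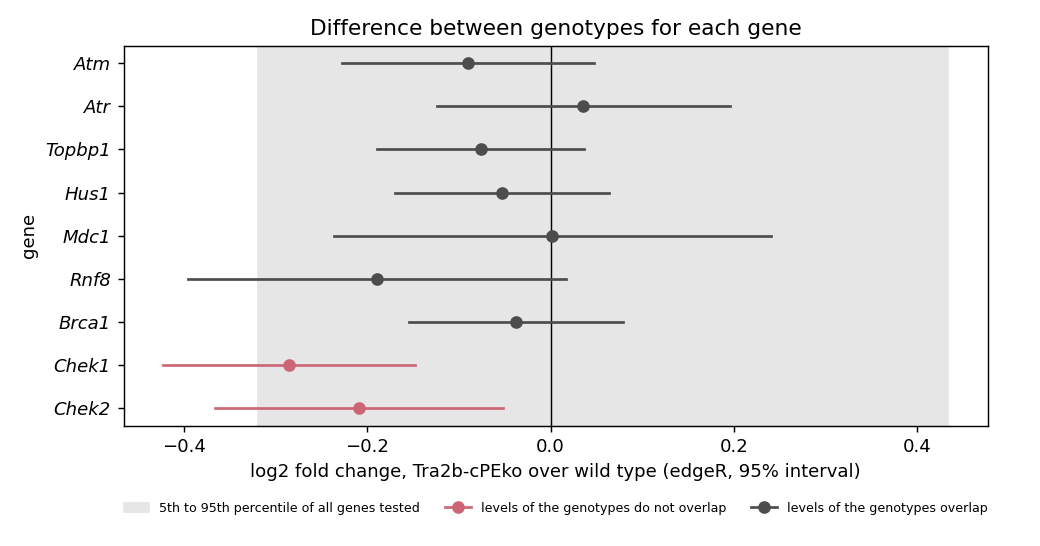
Log2 fold change (x axis) of each of the 9 tested genes (y axis), *Tra2b-cPEko* over wild type, from edgeR with 95% intervals. The grey band spans the 5th to the 95th percentile of all genes tested, -0.32 to 0.43. The intervals of *Chek1* and *Chek2* lie below 0, and those of the other 7 genes include 0.

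*Atr*, the kinase called to single-stranded DNA and to unpaired chromosomes, was counted at 494, 390, 412 and 389 CPM in wild type mice A to D and at 431, 412, 462 and 423 CPM in *Tra2b-cPEko* mice A to D. The genotypes overlapped fully, with wild type A above all others. The log2 fold change was 0.04 (SE 0.07, adjusted p = 0.856, edgeR), with a 95% interval of -8.22% to 14.5% in the level. *Atm*, the kinase called to double-strand breaks, was counted at 249, 202, 232 and 223 CPM in wild type and 204, 230, 215 and 202 CPM in *Tra2b-cPEko* mice. These values overlapped as well, with a log2 fold change of -0.09 (SE 0.06, adjusted p = 0.523, edgeR). The interval for *Atm* reached from -14.6% to 3.38%.

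A ratio of 2 genes within a mouse does not depend on the scaling of the library. *Atr* had 1.75 to 1.98 times the counts of *Atm* in wild type and 1.79 to 2.15 times in *Tra2b-cPEko* mice. The mean log2 ratio was 0.13 higher in *Tra2b-cPEko* mice (two-sided exact permutation test, p = 0.143, adjusted p = 0.286 over 2 ratios, n = 4 against 4), which did not pass the test. In 3 of the 4 *Tra2b-cPEko* mice the ratio was 2.09 to 2.15, above every wild type mouse, and in mouse B it was 1.79.

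*Atrip*, the partner that brings ATR to single-stranded DNA, was listed at 0 reads in 7 libraries and at 1 read in *Tra2b-cPEko* A, and was not tested. A count of 0 allows up to 3 reads, which was 0.0508 to 0.0817 CPM in these libraries and covers counting error only. The listed value is not a measure of *Atrip* RNA on its own, because the annotation holds overlapping genes at this locus. RefSeq spans *Atrip* with the read-through gene *Atrip-trex1*, and in GENCODE vM39 *Atrip* shares 1147 exonic bases with *Trex1* on the same strand. *Trex1* was at 0 in all 8 libraries, and *Atrip-trex1* at 20 to 42 reads. *Atrip-trex1* stood at 0.669 CPM in wild type and 0.595 CPM in *Tra2b-cPEko* mice, with a log2 fold change of -0.17 (SE 0.19, adjusted p = 0.703, edgeR). Ambiguous reads, those on more than 1 gene, made up 0.468% to 0.635% of all reads in the tables, and whether reads of *Atrip* are among them was not tested. The ratio of *Atrip* to *Atr* could not be computed for this reason.

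*Topbp1*, the activator of ATR that binds the 9-1-1 clamp, was counted at 275, 247, 239 and 236 CPM in wild type and 230, 239, 246 and 231 CPM in *Tra2b-cPEko* mice. Wild type A was the highest and the other 7 mice overlapped. Between the genotypes the log2 fold change was -0.08 (SE 0.05, adjusted p = 0.507, edgeR). *Hus1*, a subunit of the 9-1-1 clamp itself, was counted at 30.8, 30.3, 33.8 and 33.4 CPM in wild type and 31.3, 30.2, 31.3 and 30.9 CPM in *Tra2b-cPEko* mice. It was the steadiest member among the *Tra2b-cPEko* mice, with a coefficient of variation of 1.67%, and its log2 fold change was -0.05 (SE 0.05, adjusted p = 0.669, edgeR).

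*Mdc1*, the scaffold that reads phosphorylated H2AX and carries the signal along the chromosome axis into the loops, differed more within wild type than between the genotypes. It was counted at 416, 397, 306 and 302 CPM in wild type A to D and at 369, 349, 368 and 337 CPM in *Tra2b-cPEko* mice. Wild type A and B lay above all *Tra2b-cPEko* mice and wild type C and D below them, and A and B were also the 2 mice with the highest pachytene marker level, whose part in the result was not tested. In the marker list C and D lay inside the *Tra2b-cPEko* range. Between the genotypes the log2 fold change was 0.00 (SE 0.11, adjusted p = 0.997, edgeR), with an interval from -15.1% to 18.1%, and its sign changed with the fit. With wild type A and B both left out, a fit chosen after the data were seen, the log2 fold change was 0.23 (adjusted p = 0.174, edgeR). That choice fixed its sign, because wild type C and D lay below all *Tra2b-cPEko* mice. *Hus1* was split the opposite way, at 30.3 to 30.8 CPM in wild type A and B and 33.4 to 33.8 CPM in C and D.

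*Rnf8*, the ubiquitin ligase that MDC1 recruits, had the fewest reads of the members tested, 187 to 379 per mouse. It was counted at 5.77, 6.62, 5.76 and 6.42 CPM in wild type and 5.87, 5.09, 5.15 and 5.42 CPM in *Tra2b-cPEko* mice. Only *Tra2b-cPEko* A reached into the wild type range. Its log2 fold change was -0.19 (SE 0.10, unadjusted p = 0.0686, adjusted p = 0.365, edgeR), and the interval from -24.0% to 1.17% was wide. In GENCODE vM39 *Rnf8* shares 1542 exonic bases, 9.93% of its own, with *Gm28043* on the same strand. Their spans also overlap in RefSeq, where the shared bases were not counted. *Gm28043* stood at 2.74 CPM in wild type and 2.97 CPM in *Tra2b-cPEko* mice (adjusted p = 0.629, edgeR), and the listed counts can leave out reads that both genes share.

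*Brca1*, which acts in repair of breaks by recombination and in loading ATR on unpaired axes, was counted at 92.0, 80.8, 95.9 and 91.3 CPM in wild type. In *Tra2b-cPEko* mice it was at 85.1, 91.8, 87.9 and 86.0 CPM, all inside the wild type range. Its log2 fold change was -0.04 (SE 0.05, adjusted p = 0.78, edgeR), with an interval from -10.1% to 5.66%.

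**Figure D2:**
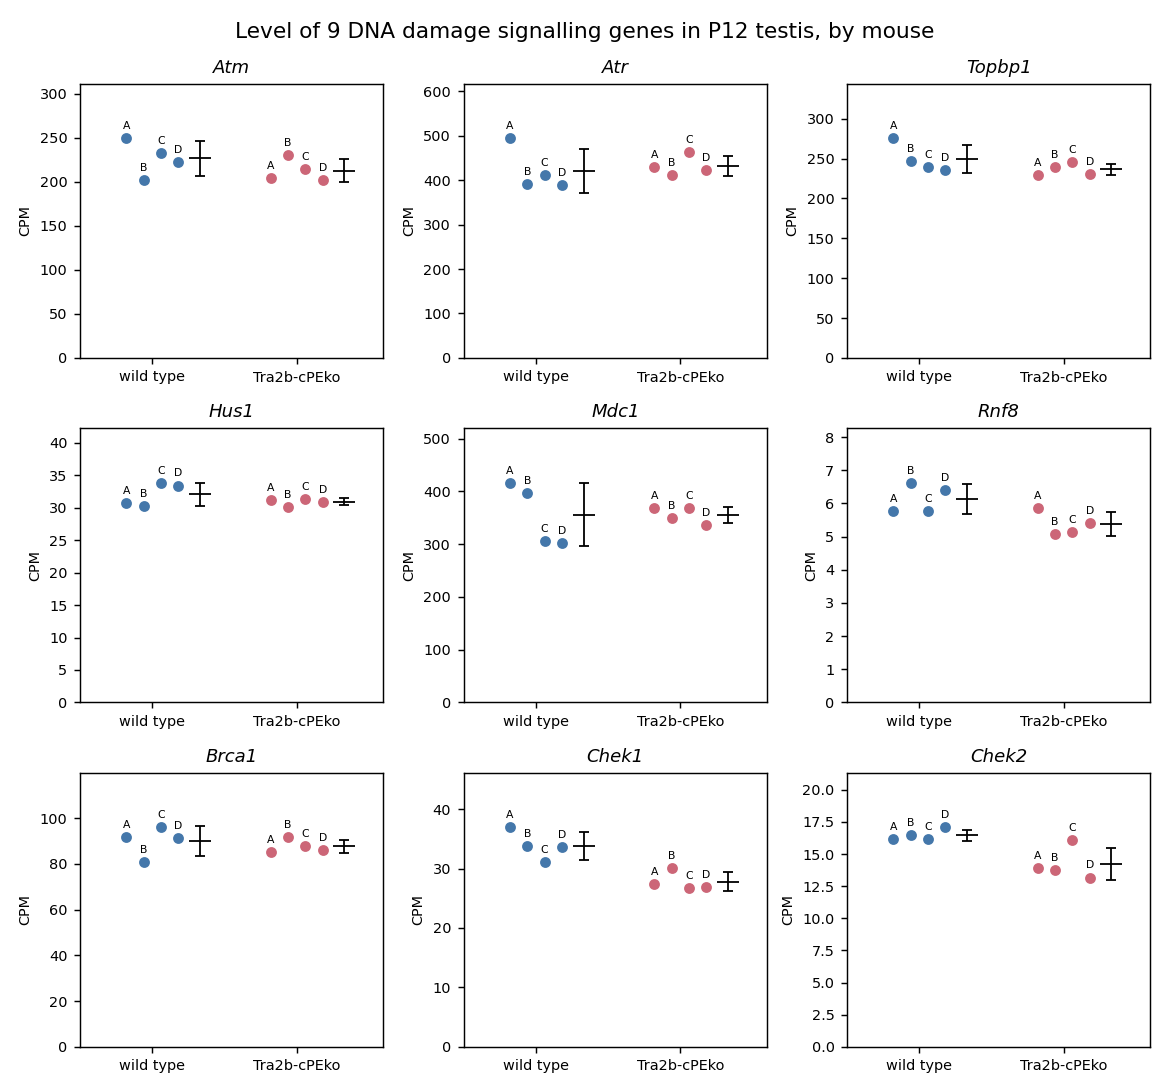
Level in CPM (y axis, from 0) of the 9 tested genes in each mouse, with a letter for each mouse and the mean ± SD of the 4 mice in black. *Chek1* and *Chek2* do not overlap between the genotypes (*Chek2* does with upper-quartile scaling), and wild type *Mdc1* falls into a higher pair (A and B) and a lower pair (C and D).

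*Chek1* was counted at 36.9, 33.7, 31.1 and 33.7 CPM in wild type A to D and at 27.4, 30.1, 26.8 and 26.8 CPM in *Tra2b-cPEko* A to D. Every *Tra2b-cPEko* mouse was below every wild type mouse, the closest being wild type C and *Tra2b-cPEko* B. The means were 33.8 ± 2.38 and 27.8 ± 1.59 CPM (SD, n = 4 each), from 985 to 1988 reads per mouse. The log2 fold change was -0.29 (SE 0.06), an interval from -25.4% to -9.73%, with an unadjusted p of 6.57e-04 and an adjusted p of 0.0923 in edgeR. DESeq2 gave the same log2 fold change of -0.29 and an adjusted p of 0.00544, so the call differed between the tools. On log2 CPM the two-sided exact permutation test gave p = 0.0286, the smallest that 70 arrangements of 8 mice allow. Any gene whose genotypes do not overlap gets this smallest value, and 8.54% of all genes did not overlap. It therefore restates the separation, and it was not adjusted over the 9 members tested. Without single mice the two-sided exact permutation test gave p = 0.0286 or 0.0571. Groups that do not overlap can give no other value with 1 mouse fewer, so these values also restate the separation. *Chek1* shares 387 exonic bases, 3.65% of its own, with the lncRNA *Gm69295* on the other strand, and whether the counting used the strand is not given in the sources used here.

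*Chek2* was counted at 16.2, 16.5, 16.1 and 17.1 CPM in wild type and at 13.9, 13.7, 16.1 and 13.2 CPM in *Tra2b-cPEko* mice. The genotypes did not overlap, but *Tra2b-cPEko* C, at 16.08 CPM, was close to the lowest wild type mouse, C, at 16.15 CPM, and with upper-quartile scaling the genotypes overlapped. The means were 16.5 ± 0.429 and 14.2 ± 1.27 CPM (SD, n = 4 each), from 484 to 1008 reads per mouse. Its log2 fold change was -0.21 (SE 0.07), an interval from -22.4% to -3.55%, and did not pass after adjustment in edgeR (adjusted p = 0.216) or DESeq2 (adjusted p = 0.134). The exact permutation test gave p = 0.0286, which the lack of overlap fixes and which was not adjusted over the members. The same exact permutation test gave p = 0.0857 with upper-quartile scaling. Under TMM scaling the exact permutation test gave p = 0.0571 without any 1 of the wild type mice. Without any 1 of the *Tra2b-cPEko* mice the exact permutation test gave p = 0.0286. With 1 mouse fewer, groups that do not overlap can give no other value, so the values without single mice restate the separation.

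The difference in *Chek1* was below 0 in each of the 17 other fits tried, and between -0.33 and -0.22 on the log2 scale. Its adjusted p was under 0.05 in 3 of them: with DESeq2, with no filter on low counts (adjusted p = 0.0363, edgeR) and without wild type C (adjusted p = 0.0491, edgeR). *Chek1* stood at -0.23 with the mean of 29 leptotene and zygotene markers as a covariate and -0.22 with wild type A and B both left out (adjusted p = 0.152 and 0.315, edgeR). *Chek2* lay between -0.28 and -0.17 in the same fits, and its adjusted p ranged from 0.134 to 0.450.

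**Figure D3:**
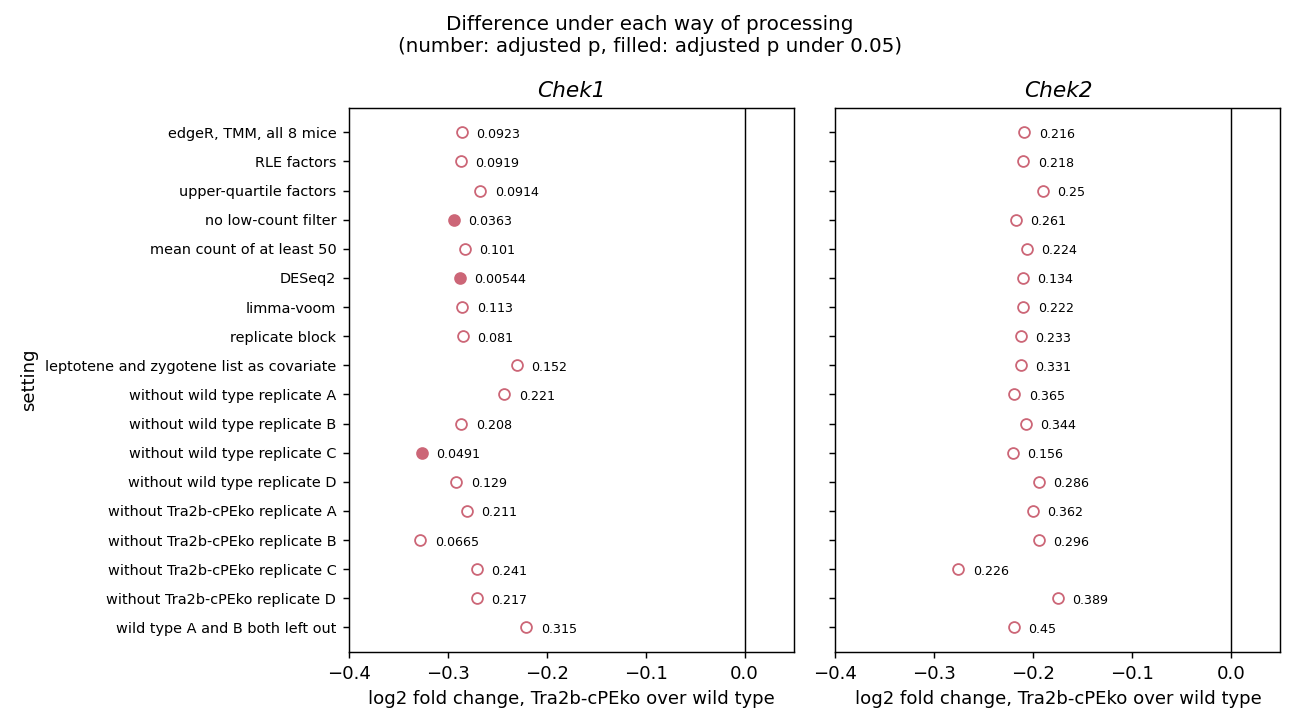
Log2 fold change (x axis) of *Chek1* and *Chek2* under each way of processing the counts (y axis), with the adjusted p beside each point and filled points where it is under 0.05. All points are below 0, and 3 are filled, all of them *Chek1*.

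The ratio of *Chek1* to *Chek2* within a mouse was 1.93 to 2.28 in wild type and 1.67 to 2.19 in *Tra2b-cPEko* mice. The difference in the mean log2 ratio, *Tra2b-cPEko* less wild type, was -0.07 and did not pass (two-sided exact permutation test, p = 0.514, adjusted p = 0.514 over 2 ratios, n = 4 against 4). The 3 genes whose log2 CPM ran closest to *Chek1* over the 8 mice, among 10849 genes whose mean level was 10 CPM or more, were *Vkorc1* (Pearson r = 0.991), *Mlf1* (r = 0.987) and *Rspry1* (r = 0.983). For *Chek2* they were *Ttc7* (r = 0.909), *Ykt6* (r = 0.907) and *Gpc4* (r = 0.888). These are the highest of many correlations over mice that share their libraries and the difference between genotypes, and are given as a description.

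Per kilobase of the canonical GENCODE transcript, *Mdc1*, *Topbp1* and *Atr* had the highest levels in wild type testis, at 48.3 ± 8.11, 47.2 ± 3.40 and 43.7 ± 5.13 CPM per kilobase (SD, n = 4). Their ranges overlapped, and their order changed from mouse to mouse in both genotypes. *Atm* followed at 18.1 ± 1.58 and *Brca1* at 13.5 ± 0.968 CPM per kilobase, in this order in all 8 mice. *Chek2* at 7.11 ± 0.185, *Hus1* at 6.43 ± 0.362, *Chek1* at 3.90 ± 0.274 and *Rnf8* at 1.09 ± 0.0787 CPM per kilobase came last. The place of *Rnf8* is that of its listed counts, which can leave out reads shared with *Gm28043*. In *Tra2b-cPEko* testes the levels of *Chek2* and *Hus1* were 6.15 ± 0.549 and 6.20 ± 0.104 CPM per kilobase, and these neighbours overlapped, while they did not in wild type. These levels depend on the length used. Over all annotated exons of a gene, wild type *Mdc1* was at 47.0, *Topbp1* at 21.5, *Atr* at 16.8 and *Atm* at 15.2 CPM per kilobase, and the lower order was *Brca1*, *Hus1*, *Chek1*, *Chek2* and *Rnf8*.

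Other genes of the pathway were read by lists, given here as counts and medians without a test of the list. Of 13 further sensors, 12 had a log2 fold change below 0, with a median of -0.10 against -0.00 over all genes, and none was called by edgeR. Of them, 5 had an unadjusted p under 0.05, all lower. Replication protein A coats single-stranded DNA, and 2 of its subunits had the smallest p: *Rpa2* was at 105.6 ± 3.79 CPM in wild type and 91.1 ± 4.08 CPM in *Tra2b-cPEko* testes, and *Rpa1* at 106.3 ± 1.28 and 96.8 ± 1.63 CPM (SD, n = 4). Their log2 fold changes were -0.21 (SE 0.05, adjusted p = 0.0892) and -0.13 (SE 0.04, adjusted p = 0.142) in edgeR. DESeq2 called both, with adjusted p of 0.00302 and 0.0134. The remaining subunit, *Rpa3*, had a log2 fold change of -0.10 (SE 0.07, adjusted p = 0.495, edgeR) and was not called by DESeq2 (adjusted p = 0.52). The summed level of the 13 sensors was 645 to 663 CPM in wild type and 598 to 613 CPM in *Tra2b-cPEko* mice, with no overlap. Separation was not particular to the sensors. The sum of 7 related kinases and their assembly factors, read below, was 1945 to 2085 CPM in wild type. It was higher in *Tra2b-cPEko* mice, at 2094 to 2182 CPM, also without overlap. Sums of the remaining lists overlapped between the genotypes.

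Of 17 further mediators and ubiquitin factors, 16 were tested, none was called, and 2 were higher and 3 lower at an unadjusted p under 0.05, with a median of -0.03. The gene not tested was *H2ax*, listed at 0 CPM in both genotypes. The cause of this was not tested, and it is not read as absence of its RNA. *Rbbp8*, a factor that starts the resection of breaks, had a log2 fold change of -0.17 (SE 0.05, adjusted p = 0.183, edgeR), and *Tipin*, of the replication fork protection complex, of -0.17 (SE 0.06, adjusted p = 0.206, edgeR). None of 11 checkpoint effectors passed even unadjusted, with a median of -0.03 and the smallest p for *Cdc25b*, a CDK phosphatase (log2 fold change -0.10, adjusted p = 0.455, edgeR), and *Wee1*, a kinase that holds CDK1 inactive (-0.07, adjusted p = 0.596). Among 7 related kinases and their assembly factors, 1 had an unadjusted p under 0.05, the acetyltransferase scaffold *Trrap* (log2 fold change 0.15, adjusted p = 0.214, edgeR), followed by *Telo2* (-0.09, adjusted p = 0.475). Of 10 p53 target genes, *Sesn1* alone had an unadjusted p under 0.05 (log2 fold change 0.15, adjusted p = 0.144, edgeR, and 0.0386 in DESeq2), *Bax* was next (-0.10, adjusted p = 0.498, edgeR), and the median was 0.01. DESeq2 called 0 genes of the mediator, effector and kinase lists. *Cdkn1a*, the p21 inhibitor, is in the effector and the p53 list, and stood at 6.99 ± 0.641 and 7.59 ± 2.05 CPM (SD, n = 4).

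ATR, TOPBP1, BRCA1 and MDC1 act in silencing of the sex chromosomes at pachytene, so other silencing factors and X-linked genes were read as well. The paper places the most advanced germ cells at this age near the start of pachytene, so X-linked levels do not measure silencing here. None of 9 other silencing factors had an unadjusted p under 0.05 in edgeR, and DESeq2 called 0 of them. The smallest were those of *Hormad2*, which marks unpaired axes (log2 fold change -0.20, adjusted p = 0.362, edgeR), and *Setdb1*, a histone methyltransferase (-0.09, adjusted p = 0.376). Of 702 genes on the X chromosome that were tested, 4 were called by edgeR and 85 were higher and 45 lower at an unadjusted p under 0.05, with a median of 0.02. Over all genes edgeR called 25 higher and 5 lower, and 1571 were higher and 1351 lower at an unadjusted p under 0.05. DESeq2 called 19 of the X-linked genes higher and 6 lower, against 301 and 206 over all genes, and the difference between X-linked and other genes was not tested. Their mean log2 CPM was 3.58 to 3.65 in wild type and 3.64 to 3.69 in *Tra2b-cPEko* mice, with overlap.

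Marker genes of testis cell types were read beside the members. Of 29 markers of leptotene and zygotene spermatocytes, the cells in which meiotic breaks are made and answered, 24 were below 0, with a median of -0.11, and 2 were higher and 6 lower at an unadjusted p under 0.05, with 0 called by edgeR or DESeq2, and *Syce2* (log2 fold change -0.17, adjusted p = 0.165, edgeR) and *Syce1* (-0.23, adjusted p = 0.192) first. Of 6 markers of differentiating spermatogonia all were below 0, and *Sohlh1* was called (log2 fold change -0.34, SE 0.05, adjusted p = 0.0341, edgeR). The mean log2 CPM of these 6 was 5.91 to 6.01 in wild type and 5.73 to 5.87 in *Tra2b-cPEko* mice, without overlap, while their summed CPM overlapped. Pachytene markers had a median of -0.32 over the 12 tested, with *Spag6l* at -2.28 (adjusted p = 0.254, edgeR) and *Acr* at -1.63 (adjusted p = 0.295), and their mean level overlapped between the genotypes through wild type C and D. All 9 macrophage markers were above 0, with a median of 0.28, 6 of them at an unadjusted p under 0.05, led by *Cx3cr1* (0.41, adjusted p = 0.127, edgeR) and *Csf1r* (0.29, adjusted p = 0.136), and DESeq2 called these 2. The part of these cell types in the levels of *Chek1* and *Chek2* was not tested. The covariate fit above used the leptotene and zygotene list alone. The mean log2 CPM of that list was 5.79 to 6.18 in wild type and 5.82 to 5.92 in *Tra2b-cPEko* mice, with overlap.

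Among the remaining cell types, undifferentiated spermatogonia had a median of -0.01 over 12 markers, of which 6 were above 0 and 6 below, with *Sall4* (log2 fold change -0.21, adjusted p = 0.159, edgeR) and *Bcl6b* (-0.18, adjusted p = 0.342) first. Sertoli markers had a median of -0.05 over 9, of which 2 were above 0 and 7 below, with *Amh* (-0.37, adjusted p = 0.325, edgeR) and *Aard* (-0.11, adjusted p = 0.352) first. Leydig markers had a median of 0.40 over 7, of which 5 were above 0 and 2 below, with *Lhcgr* (0.46, adjusted p = 0.131, edgeR, and 0.00851 in DESeq2) and *Star* (0.57, adjusted p = 0.499) first. Peritubular and stromal markers had a median of 0.08 over 9, of which 8 were above 0 and 1 below, with *Myh11* (0.21, adjusted p = 0.167, edgeR) and *Tagln* (0.15, adjusted p = 0.28) first. Endothelial markers had a median of 0.05 over 7, all above 0, with *Pecam1* (0.13, adjusted p = 0.543, edgeR) and *Tek* (0.07, adjusted p = 0.746) first.

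**Figure D4:**
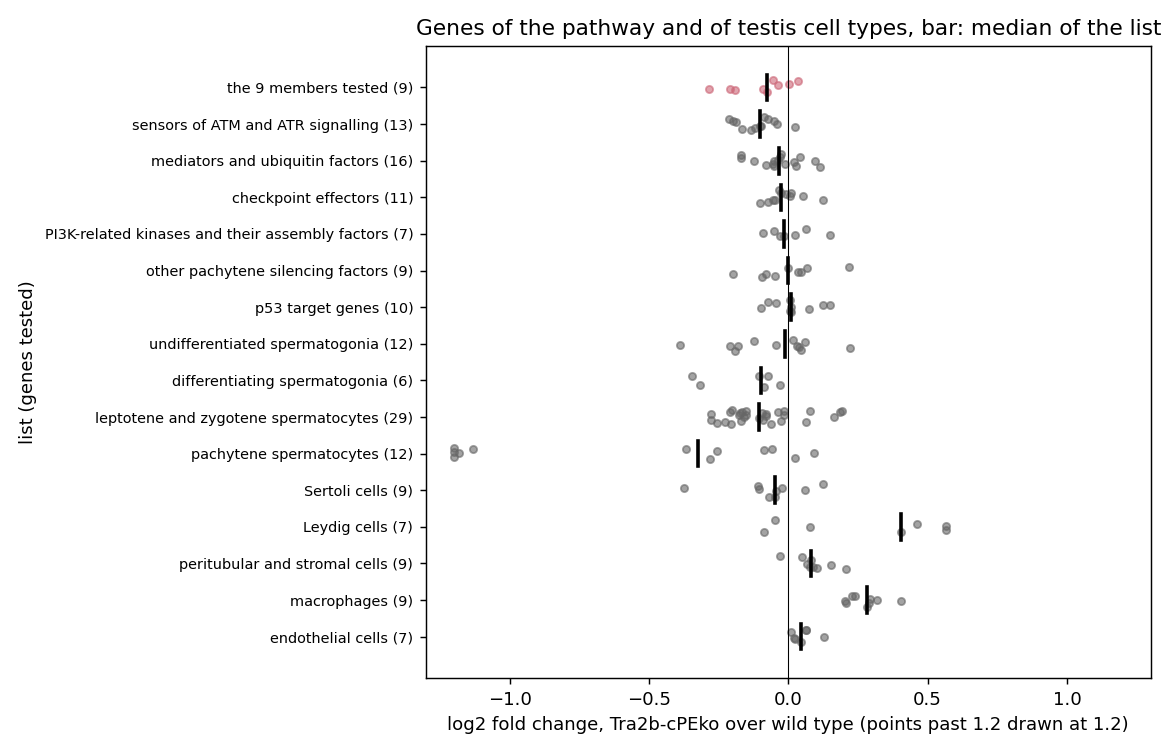
Log2 fold change (x axis), *Tra2b-cPEko* over wild type, of each tested gene of the members, the pathway lists and the cell type lists (y axis, with the number of genes tested), and the median of each list as a bar. Sensors sit nearly all below 0, at a median of -0.10, and macrophage markers all above 0, at a median of 0.28. In the pachytene list 3 points past the drawn range are placed at its limit.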

How the data were processed

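RNAseq libraries of whole P12 testis (TruSeq stranded mRNA, paired-end) were made from 4 mice of each genotype. The authors deposited raw read counts per gene, 1 table per mouse. Per the labels' processing notes, HISAT2 2.2.1, SAMtools 1.7.1 and HTSeq 2.0.2 were used with GRCm39. The paper names Salmon for the counts that it gave to DESeq2. Whether counting used the strand is not given in the sources used here. The 5 summary lines were left out, and 66.4% to 69.0% of reads were on genes. A shared letter was not taken to pair the mice.

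Counts were tested with edgeR 4.0.16 (filterByExpr with a least count of 10 and a least total of 15, TMM, robust quasi-likelihood fit, genotype as the only term), with Benjamini-Hochberg adjustment over 19104 genes and a threshold of 0.05. Intervals are 95% intervals of that fit, converted from log2 to percent. Single values were compared by exact permutation of the 8 mice, two-sided, as log2 CPM with a prior count of 2. DESeq2 1.42.0, limma-voom (limma 3.58.1), other scaling factors and filters, the replicate letter as a block, a marker covariate and fits without each mouse were alternatives, and a fit without wild type A and B was added after the data were seen. The methods were tested on simulated data. All members are named, and of each list the called genes, otherwise the 2 with the smallest p, and other genes named were chosen after their values were seen. Members and lists were chosen with earlier results of these data known. Positions are from GENCODE vM39 (GRCm39) and promoters from RefSeq (GRCm38.p6, 10 of 10 members matched). R 4.3.3, Python 3.11.15 and matplotlib 3.10.9 were used.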

Additional observations from a re-analysis of the deposited data

How the results depend on the processing

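The members called numbered 0 in edgeR, and 1, *Chek1*, with no low-count filter, with DESeq2 and without wild type C. Leaving out single mice gave 0 to 1. Over all genes edgeR called 30, against 58 with upper-quartile factors, 123 with no low-count filter, 14 with a mean count of at least 50, 507 with DESeq2, 11 with limma-voom, 14 with the leptotene and zygotene covariate, 1 without both wild type A and B (chosen after seeing the data) and 3 to 84 without single mice (84 without wild type C, 76 without *Tra2b-cPEko* B, 3 without *Tra2b-cPEko* D). The replicate block gave 67 genes and 0 members. Same-letter mice did not all deviate together, with correlations of -0.0385, -0.249, 0.0987 and 0.443 for A to D. That of the D mice was the highest of any wild type with any *Tra2b-cPEko* mouse. The letters were not taken as pairs. The log2 fold change of *Mdc1* turned to -0.00745 with no low-count filter and -0.00101 with DESeq2, and ranged from -0.0721 to 0.0842 without single mice, as the difference of mean log2 CPM did from -0.0571 to 0.0963. That of *Atr* ranged from -0.00395 to 0.12 (lowest without wild type D, highest without A), *Atm* from -0.14 (without wild type B) to -0.04 (without A), *Topbp1* from -0.11 to -0.03 (without wild type A), *Brca1* from -0.08 (without wild type B) to -0.00753 (without C) and *Hus1* from -0.08 to -0.03 (without wild type C). The log2 ratio of *Chek1* to *Chek2* ranged from -0.13 to 0.00591 without single mice, above 0 without *Tra2b-cPEko* C, and that of *Atr* to *Atm* from 0.10 to 0.19. No other member's log2 fold change changed sign in any fit run. The cause of these shifts was not tested. Counts of 187 to 379 reads limit *Rnf8*, *Atrip* could not be measured from these counts, and 4 mice per genotype allow no exact p under 0.0286.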
